A study of Homo sapiens with 6 samples.

Results

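HT29 is an established human colon adenocarcinoma cell line, and the cells described here carried a control short hairpin RNA (shCTRL) and were labelled as wild type and untreated. Their resting transcriptome was read from the 3 shCTRL libraries of the 6 libraries in the series, and the members are the 19951 genes annotated as protein-coding among the 58978 genes of the count table. The cells grew in McCoy's 5A medium with 10% fetal bovine serum and antibiotics at 37 °C and 5% CO2. RNA was extracted with Trizol, and strand-preserving libraries were made from 1.5 µg of total RNA. The other 3 libraries, from cells with a hairpin against FITM2, were not used. The cells stand for 1 line from 1 tumour, the sources used here give neither the sequence nor the vector of the control hairpin, and no label says whether the 3 libraries came from separate cultures.

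The colon epithelium renews itself from stem cells at the crypt base, which receive Wnt signals and give rise to absorptive colonocytes, mucus-secreting goblet cells, hormone-secreting enteroendocrine cells and tuft cells. Epithelial identity rests on keratins, on junction proteins such as E-cadherin and on transcription factors of the HNF, FOXA, GATA, KLF and CDX families, while the HOX genes record position along the body axis. Colon cancers keep parts of this programme, and cancer cells often run glycolysis with lactate release, make their own fatty acids and depend on growth factor receptors.

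Levels are CPM, the reads of a gene scaled to a fixed library total (counts per 1e6 counts), and CPM per kilobase of gene length wherever genes are compared with each other. A gene was called detected at 1 CPM or more in every library. The 3 libraries held 18855731, 18342300 and 17176487 counts, so that 1 CPM was 18.9, 18.3 and 17.2 reads. No read in all 3 libraries allows a level of up to 0.0552 CPM (3 counts over the group, counting error only). Protein-coding genes took 97.4%, 97.4% and 97.5% of the counts, and those of the mitochondrial genome took 8.44%, 7.57% and 7.24%. With 1 group there is no contrast to test, an exact two-sided sign test over 3 libraries cannot go below 0.25, and all values are descriptions given with their spread. Triplets of values are in the order of replicates 1, 2 and 3.

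Of the 19951 protein-coding genes, 11141 (55.8%) were detected, 8565 (42.9%) reached 10 CPM in every library, 2015 (10.1%) reached 100 CPM and 67 reached 1000 CPM. A further 4858 (24.3%) had no read in any library. A percentage after the count of a gene list is the share of the list detected, to be read against these 55.8%. The median over all protein-coding genes was 4.54 CPM or 1.02 CPM per kilobase, and over the detected genes it was 35.2 CPM or 6.71 CPM per kilobase. The 100 most abundant genes took 22.2%, 21.4% and 21.6% of the counts.

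Among nuclear genes FTL, the light chain of the iron store ferritin, had the highest level for its length, at 3889, 4023 and 4915 CPM per kilobase. EEF1A1, a translation elongation factor, followed at 2007, 1966 and 2054 CPM per kilobase. The next 13 were the ribosomal protein genes RPL13A, RPL21, RPS12, RPLP1 and RPLP0, the actin gene ACTB, the keratins KRT8 and KRT18, the ferritin heavy chain FTH1, the calcium-binding protein S100A6, the chaperone HSP90AB1, the glycolytic enzyme GAPDH and the actin-binding peptide TMSB10, from 1092 down to 639 CPM per kilobase on average. FTH1 was at 725, 534 and 1404 CPM per kilobase and TMSB10 at 482, 459.9 and 975, with replicate 3 the highest for both. Many of these genes have near-identical copies elsewhere, and how reads that map to several places were counted is not given in the sources used here: 58.6% of the 31-base words of RPL21, 50.8% of those of FTH1 and 43.3% of those of KRT18 also occur in other genes. In addition, 62.4% of the FTH1 exon bases lie opposite BEST1.

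Epithelial genes were nearly all on. Of 30 keratins, claudins, desmosome and tight junction genes and their regulators, 29 were detected, beside 55.8% of all protein-coding genes, with a median of 46.00 CPM per kilobase. KRT8 and KRT18, which pair into the keratin filament of simple epithelia, stood at 6141 ± 669.5 and 2719 ± 274 CPM (SD, n = 3). The KRT8 over KRT18 ratio per kilobase was 1.10, 1.01 and 1.06, close to equal in each library. This rests on the deposited gene lengths of 6881 and 3218 bases. Without length scaling KRT8 was the higher in each library, at 5971, 5574 and 6880 CPM beside 2531, 2592 and 3033. The genes lie side by side on opposite strands of chromosome 12 (KRT8 at chr12:52897187-52949954 and KRT18 at chr12:52948871-52952901 on GRCh38), and 16.3% of the KRT18 exon bases lie opposite KRT8. KRT19 had 685, 700.3 and 875 CPM, and KRT20, a keratin of gut epithelium, had 244, 226 and 266.

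EPCAM, an adhesion protein of epithelial cells, was at 639, 657 and 606 CPM, and CDH1, the E-cadherin of adherens junctions, at 353, 337 and 358. Each stayed within a narrow band over the libraries. SPINT2 and SPINT1, inhibitors of serine proteases at the epithelial surface, were at 1112 and 339 CPM on average, and ST14, a membrane serine protease of epithelia, at 436, 398 and 590.4. Among the claudins of tight junctions CLDN3 had 118 CPM per kilobase on average, CLDN4 84.1 and CLDN7 28.3. The splicing regulator ESRP1 was at 374, 406 and 345 CPM and the epithelial transcription factor EHF at 411, 410.3 and 397. KRT7 was the one undetected gene of the list, at 1.27, 0.164 and 1.81 CPM. 

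Of the transcription factors of the gut 16 of 25 were detected (64%, beside 55.8% of all protein-coding genes), with a median of 1.82 CPM per kilobase. KLF5, a factor of proliferating crypt cells at chr13:73054976-73077542, had the highest level per kilobase, at 845, 852 and 909 CPM or 223 ± 8.89 CPM per kilobase. SOX9, a factor of the crypt base, was at 205, 192 and 217 CPM, and FOXA1, a pioneer factor of endoderm, at 132, 133 and 164. GATA6 was at 58.7 CPM on average while its relative GATA4 had no read. HNF4A over HNF4G, nuclear receptors that drive absorptive genes, was 0.685, 0.538 and 0.763 per kilobase, less than 2-fold apart in every library. FOXA1 over FOXA2 was 28.5, 23.03 and 36.8.

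Some of the best-known transcription factors of the intestine were not detected. CDX2, the homeobox factor commonly used to mark intestinal epithelium, had 13, 12 and 19 reads, or 0.689, 0.654 and 1.11 CPM. Its relative CDX1 had 0.743, 1.15 and 0.640 CPM. Neither was detected, although each passed 1 CPM in 1 library. The intestinal factors ISX and NR1I2 had no read. Whether the line was authenticated is not given in the sources used here and was not tested. In bulk RNA, fewer cells that carry a transcript and less of it per cell cannot be told apart.

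**Figure D1:**
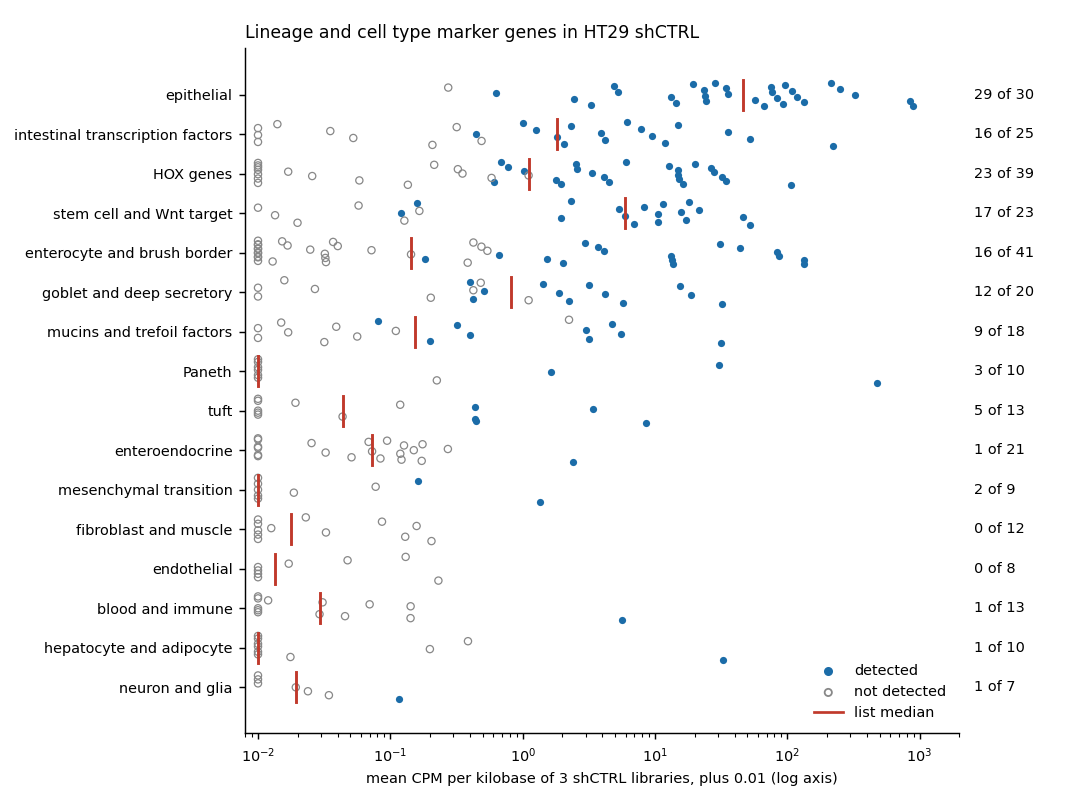
Mean CPM per kilobase of each marker gene over 3 shCTRL libraries, plus 0.01, on a log axis, by gene list. Filled points are detected genes, open points are genes not detected and red bars are list medians: 29 of 30 epithelial genes were detected, and 0 of 12 fibroblast and muscle genes.

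Of 39 HOX genes 23 were detected (58.97%, beside 55.8% of all protein-coding genes), and the counts differed by cluster. In the HOXA cluster 10 of 11 genes were detected and in the HOXB cluster 9 of 10, beside 4 of 9 in HOXC and 0 of 9 in HOXD, where 7 genes had no read. HOXB9, at chr17:48621159-48626356, had the highest level at 276, 239 and 311 CPM, or 107 ± 13.8 CPM per kilobase. Its neighbours HOXB7, HOXB6, HOXB5 and HOXB8 had 34.4, 31.8, 28.01 and 26.6 CPM per kilobase on average. HOXA13, the most posterior gene of its cluster, led the HOXA genes per kilobase at 108, 101 and 97.9 CPM, whereas HOXB13, its counterpart in HOXB, had 3.08, 2.13 and 2.80. The cluster medians were 6.00, 20.8, 0.572 and 0 CPM per kilobase for HOXA, HOXB, HOXC and HOXD. HOXD3 and HOXD4 share 62.2% and 80.5% of their exon bases with another gene on the same strand, and HOXD1 has 58.1% opposite another gene, so these 3 zeros carry that limit. 

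**Figure D2:**
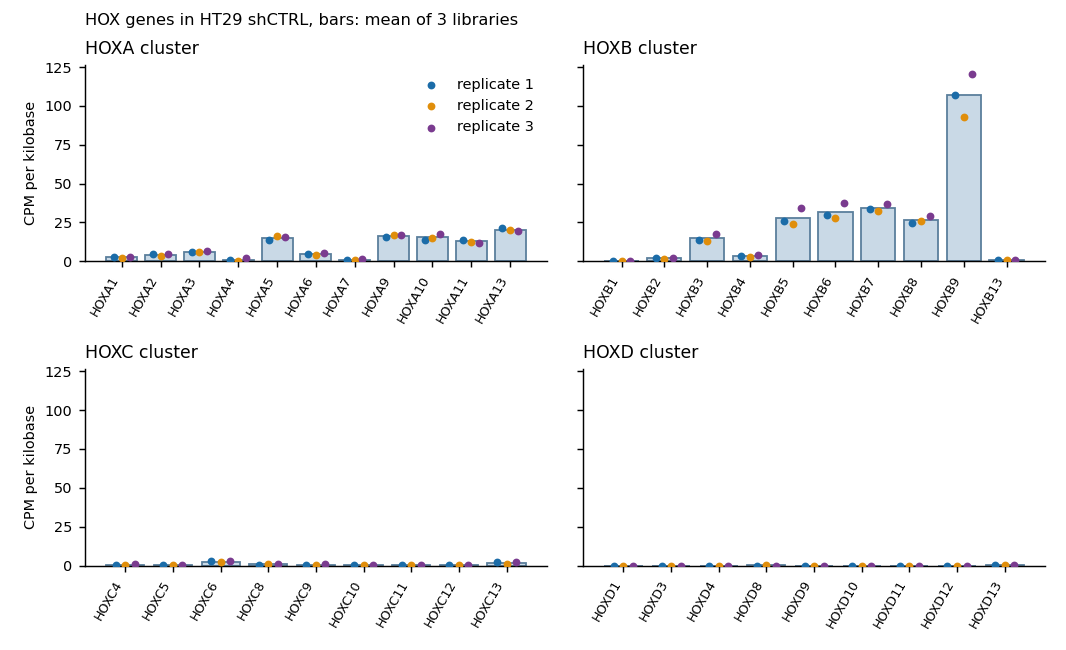
CPM per kilobase of each HOX gene, in 1 panel per cluster, with bars for the mean and points for the 3 shCTRL libraries. HOXB9 stands at 107 CPM per kilobase on average, and the HOXD genes are at or near 0 in every library.

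Of 41 enterocyte and brush border genes 16 were detected (39.02%, beside 55.8% of all protein-coding genes), and 10 had no read in any library. LGALS4, a gut lectin, was at 328, 336 and 401 CPM, EZR, which ties microvillus actin to the membrane, at 272, 291 and 301, and PLS1, an actin bundler of the brush border, at 172, 179 and 142. TSPAN1 and CEACAM1 had 197 and 242 CPM on average. VIL1, the villin of microvilli, had 91.4, 87.9 and 97.8 CPM, and 44.00% of its exon bases lie opposite USP37, itself at 28.4 CPM. Other genes of the microvillus were not detected: MYO1A, a brush border myosin, was at 0.592 CPM on average and CDHR2, a cadherin that links microvilli, at 0.161.

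Several hydrolases and carriers of the mature enterocyte were not detected. SI (sucrase-isomaltase), ALPI (intestinal alkaline phosphatase), LCT (lactase), FABP1 (fatty acid binding), APOB and the peptide carrier SLC15A1 had no read in any library. SLC26A3, the chloride exchanger of colonocytes, had 1 read in all, and the carbonic anhydrases CA1 and CA2 had means of 0.0921 and 1.13 CPM. DPP4, a brush border peptidase, was an exception at 20.7, 23.01 and 18.1 CPM, and CDH17, the intestinal cadherin, was at 7.53, 8.07 and 8.03. APOA4 also had no read, and 43.1% of its exon bases lie opposite another gene.

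Of 20 goblet-cell genes 12 were detected (60%, beside 55.8% of all protein-coding genes), with a median of 0.801 CPM per kilobase. AGR2, a disulfide isomerase needed for mucin folding, was at 92.7, 99.7 and 81.6 CPM, the transcription factor CREB3L1 at 71.1, 64.5 and 90.01, and the goblet factor SPDEF at 28.1, 27.04 and 33.7. MUC2, the gel-forming mucin that defines colonic goblet cells, had 4.24, 4.25 and 6.40 CPM and the trefoil peptide TFF3 4.08, 4.36 and 2.56. ATOH1, the regulator of the secretory lineage, was not detected at 0.424, 0.927 and 1.40 CPM. Among 18 mucins and trefoil factors 9 were detected (50%). The highest per kilobase were MUC13, a membrane mucin at 118, 117 and 97.5 CPM (31.7 CPM per kilobase on average), and MUC5AC, a mucin of the stomach surface at 93.02, 82.9 and 114 CPM (5.53 CPM per kilobase). The ratio of TFF3 over TFF1 per kilobase had no steady order, at 2.79, 1.64 and 0.692.

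Fewer genes were detected in the lists of other secretory and sensory cells, beside 55.8% of all protein-coding genes. In the Paneth list 3 of 10 were detected (30%): LYZ, lysozyme, at 868, 900.2 and 759 CPM (478 ± 41.9 CPM per kilobase), the protease MMP7 at 71.4, 76.2 and 66.4, and the trypsinogen PRSS2 at 1.75, 1.58 and 2.80. The defensins DEFA5 and DEFA6 had no read, and 33.96% of the LYZ exon bases lie opposite another gene, which had no read. In the tuft list 5 of 13 were detected (38.5%), led per kilobase by the eicosanoid enzymes ALOX5 at 33.3, 26.7 and 36.2 CPM and PTGS1 at 18.9, 18.1 and 21.6. The tuft regulator POU2F3 was at 3.50, 2.62 and 2.45 CPM, and DCLK1 had no read. In the enteroendocrine list 1 of 21 was detected (4.76%), the factor ISL1 at 8.33, 6.38 and 5.94 CPM, and the hormone genes GCG, GIP and INSL5 had no read.

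Of the stem cell and Wnt target genes 17 of 23 were detected (73.9%), with a median of 5.89 CPM per kilobase. LGR5, the stem cell receptor for R-spondins, had 57.6, 59.4 and 47.7 CPM, and its relative LGR4 121, 120.1 and 101. AXIN2, ZNRF3 and RNF43, which dampen Wnt signalling and are induced by it, had 82.8, 119.5 and 78.9 CPM on average. OLFM4, a crypt base marker, had no read, and SMOC2, NOTUM and LEF1 were not detected. ASCL2, a stem cell factor, was at 8.17, 6.49 and 18.1 CPM, with replicate 3 the highest. RNF43 and AXIN2 share 59.6% and 25.2% of their exon bases with another gene on the same strand, each of which had under 1 CPM.

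All 25 genes of a list of colorectal cancer drivers were detected. MYC was at 134, 114 and 170.0 CPM, CTNNB1, the beta-catenin of Wnt signalling, at 328, 334 and 299.9, and the cell cycle inhibitor CDKN2A at 164, 169.9 and 227. The tumour suppressors APC and SMAD4 had 60.01 and 17.6 CPM on average, and the kinase and GTPase genes BRAF and NRAS 42.96 and 146. CDKN1A, another cell cycle inhibitor, was at 5.04, 6.65 and 7.45 CPM. These are RNA levels, and count tables do not hold the sequence of the transcripts.

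Most markers of other cell types were at or near 0. Of 12 fibroblast and muscle genes and 8 endothelial genes none was detected, with summed levels of 2.49, 3.05 and 5.24 CPM and 2.23, 2.51 and 1.86 CPM. Of 13 blood and immune genes 1 was detected, CD14, at 11.9, 8.83 and 11.2 CPM, while PTPRC had 1 read in all and CD3D and MS4A1 none. CD68 had no read either, and 81.7% of its exon bases are shared with another gene on the same strand. In a list of 9 genes of epithelial-mesenchymal transition, CDH2, SNAI2, SPARC, TWIST1 and VIM had no read (24.4% of the VIM exon bases lie opposite another gene), and SNAI1 and FN1 were detected at 2.25 and 2.62 CPM on average. Of the neuron and glia list 1 of 7 was detected, MAP2 at 1.22, 1.31 and 1.164. In the liver and fat list 1 of 10 genes was detected, and ALB, AFP and APOA2 had no read. The detected gene was SERPINA1, alpha-1 antitrypsin, at 150.0, 138 and 196 CPM.

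The sequences just upstream of the RefSeq start of 10 genes are shown because they set abundant housekeeping, receptor and ligand genes beside differentiation genes, both detected and not. Each is the 100 bases before that start on GRCh38.p14, on the gene's own strand, 5′ to 3′, with CG dinucleotides in capitals. None of these bases lies in an exon of GENCODE release 29, but 5 of the 10 stretches, those of GAPDH, EZR, BMP4, MUC13 and CXCL12, lie inside the span of their own gene in the count table, which starts further upstream.
GAPDH: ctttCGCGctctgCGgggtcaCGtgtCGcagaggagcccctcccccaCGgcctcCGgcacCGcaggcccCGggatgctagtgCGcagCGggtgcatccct
MET: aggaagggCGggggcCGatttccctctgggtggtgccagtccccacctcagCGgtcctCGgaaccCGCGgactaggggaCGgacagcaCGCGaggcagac
EZR: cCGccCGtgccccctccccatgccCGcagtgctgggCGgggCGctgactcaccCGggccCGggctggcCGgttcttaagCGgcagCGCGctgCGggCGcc
BMP4: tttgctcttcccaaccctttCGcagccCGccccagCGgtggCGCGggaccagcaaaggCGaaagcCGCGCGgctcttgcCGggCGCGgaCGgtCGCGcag
CXCL12: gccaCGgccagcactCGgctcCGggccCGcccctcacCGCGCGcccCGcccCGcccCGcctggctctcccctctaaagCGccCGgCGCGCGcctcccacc
KLF5: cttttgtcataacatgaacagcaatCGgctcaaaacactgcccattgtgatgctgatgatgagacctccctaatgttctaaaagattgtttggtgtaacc
KRT20: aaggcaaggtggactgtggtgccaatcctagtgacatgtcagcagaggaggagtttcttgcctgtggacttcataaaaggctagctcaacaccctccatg
MUC13: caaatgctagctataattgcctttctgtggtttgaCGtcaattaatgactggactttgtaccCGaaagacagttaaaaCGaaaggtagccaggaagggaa
SI: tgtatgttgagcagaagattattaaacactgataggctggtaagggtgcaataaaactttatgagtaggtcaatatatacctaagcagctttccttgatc
GUCA2B: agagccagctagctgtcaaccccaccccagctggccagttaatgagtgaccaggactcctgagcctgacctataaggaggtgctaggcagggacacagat

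The stretches lie at chr12:6535164-6535263 (plus strand) for GAPDH, chr7:116672096-116672195 (plus strand) for MET, chr6:158818236-158818335 (minus strand) for EZR, chr14:53955051-53955150 (minus strand) for BMP4 and chr10:44385098-44385197 (minus strand) for CXCL12. Those of KLF5, KRT20, MUC13, SI and GUCA2B lie at chr13:73054876-73054975 (plus strand), chr17:40885243-40885342 (minus strand), chr3:124934752-124934851 (minus strand), chr3:165078497-165078596 (minus strand) and chr1:42153310-42153409 (plus strand). GAPDH, MET, EZR and BMP4, with means of 2053, 621, 288 and 423 CPM, carry 11, 9, 13 and 15 CG in 100 bases. KLF5, KRT20 and MUC13, with means of 869, 245 and 111 CPM, carry 1, 0 and 3. SI and GUCA2B, a gut peptide ligand, had no read and carry 0 and 0, and CXCL12, a chemokine, also had no read but carries 15. Each stretch belongs to the first RefSeq start listed for its gene, and other starts were not examined. Among these stretches CG-poor sequence lay before abundant lineage genes and before genes with no read. CG-rich sequence lay before abundant genes and before a gene with no read.

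Over all genes the CG count shifted with the level. Of 19921 nuclear protein-coding genes with a symbol of their own, 14895 matched a RefSeq upstream sequence. The median number of CG in 250 bases was 5 among genes with no read, 10 above 0 to 1 CPM and 18 above 1 to 10 CPM. It was 21 above 10 to 100 CPM, 23 above 100 to 1000 CPM and 22 in the 46 genes above 1000 CPM. A count of 10 or more CG was found in 36.6% of genes with no read, in 90.1% of genes above 100 to 1000 CPM and in 69.4% of all. The letters TATAAA, searched on both strands in the last 50 bases, occurred in 9.46% of genes with no read, in 2.42% above 100 to 1000 CPM and in 6 of 46 genes above 1000 CPM, beside 4.29% of all. The median CG count was 5 in the 7 detected goblet genes with a sequence and 9.5 in the 12 detected enterocyte genes, beside 22 in the 32 detected genes of the TCA cycle list and 18 over all matched genes. The 7 goblet genes and 19 enterocyte genes that had a sequence and were not detected had medians of 5 and 4. A RefSeq start need not be the one these cells use, and a match of letters is a description.

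In several steps of glycolysis 1 isoform far exceeded its relatives. Of the genes of glucose uptake and glycolysis 28 of 40 were detected (70%), with a median of 3.59 CPM per kilobase. GAPDH was at 2013, 2086 and 2060.4 CPM, the enolase ENO1 at 1833, 1933 and 2097 and the pyruvate kinase gene PKM at 2499, 2500.3 and 2688. LDHA, which favours lactate production, exceeded LDHB per kilobase by 6.58, 6.40 and 9.58 times, and ENO1 exceeded ENO2 by 186, 188 and 207 times. PKLR, the pyruvate kinase of liver, and SLC2A3, a glucose carrier, had no read, so that PKM was at least 17144-fold higher than PKLR and SLC2A1 at least 11669-fold higher than SLC2A3 per kilobase (3 counts over the group as the floor), and 39.3% of the 31-base words of SLC2A3 occur in other genes.

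The glucose carrier SLC2A1 was at 468, 467 and 552 CPM. The lactate and pyruvate carrier SLC16A1 exceeded SLC16A3 by 7.84, 9.26 and 5.01 times per kilobase, and its chaperone BSG had 362, 355 and 425 CPM. Of the hexokinases, HK1 exceeded HK2 by 2.68, 2.42 and 3.00 times. Of the phosphofructokinases, PFKP exceeded PFKL in every library, with PFKL over PFKP at 0.248, 0.234 and 0.279 per kilobase, while PFKL over PFKM was 0.668, 0.614 and 1.07, an order that changed with the library. ALDOA, the main aldolase of most tissues, had 1.33, 1.47 and 2.27 CPM, and 42.3% of its exon bases are shared with another annotated gene on the same strand and 59.2% of its 31-base words occur in other genes. LDHB has 33.4% of exon bases and 61.6% of words shared, and the part of this sharing in the values of both genes was not tested.

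Genes of mitochondrial fuel use were nearly all detected, with 36 of 37 in the TCA cycle and glutamine list (97.3%). Of these, 34 were at 10 CPM or more in every library, and the list median was 20.1 CPM per kilobase. MDH2 (malate dehydrogenase) was at 280.2, 267 and 379 CPM, CS (citrate synthase) at 385, 398 and 382 and GLUD1 (glutamate dehydrogenase) at 307, 313 and 264. GLS2, a glutaminase with 77.1% of its exon bases opposite SPRYD4, was not detected at 0, 0.109 and 0.466 CPM. Asparagine synthetase (ASNS) had 2.86, 3.33 and 3.84 CPM, with 44.6% of its exon bases shared with another gene on the same strand. In gluconeogenesis and ketogenesis 7 of 11 were detected (63.6%). FBP1 was at 68.5, 63.4 and 85.1 CPM and the mitochondrial PCK2 at 37.2, 42.5 and 38.95, while cytosolic PCK1 and the glucose-6-phosphatase G6PC had no read. 

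The genes of lipid synthesis were led by SCD, the desaturase that makes oleate, at 1306, 1326 and 1249 CPM. Of 39 genes of fatty acid and sterol synthesis 29 were detected (74.4%), with a median of 9.88 CPM per kilobase. FASN (fatty acid synthase) was at 409.6, 448 and 573 CPM, ACACA (acetyl-CoA carboxylase) at 368, 389 and 347 and ACLY (ATP citrate lyase) at 253, 257 and 238, while SQLE of the sterol route had a mean of 240.3. Paralogue choice was sharp here: SCD exceeded SCD5 by 458, 374 and 520.2 times and ACACA exceeded ACACB by 249.7, 442 and 171 times per kilobase. Enzymes that build polyunsaturated fatty acids were low, with FADS1, FADS2 and ELOVL5 at 2.04, 0.282 and 0.0582 CPM on average. CYP51A1, a sterol demethylase, was not detected at 0.530, 2.13 and 2.56 CPM, and 79.4% of its exon bases are shared with another gene on the same strand. 

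In the lipid droplet and triacylglycerol list 30 of 44 genes were detected (68.2%), with a median of 2.15 CPM per kilobase. The acyl-CoA synthetases ACSL5 and ACSL3 led per kilobase, at 307, 308 and 273 and at 278, 297 and 243 CPM. DGAT1, which makes triacylglycerol, exceeded DGAT2 by 7.59, 7.34 and 10.7 times per kilobase. FITM2, the target of the series' other hairpin and a protein of the endoplasmic reticulum that helps lipid droplets form, lies at chr20:44302838-44311169 and was at 13.3, 10.6 and 10.4 CPM (2.48 ± 0.348 CPM per kilobase). Its relative FITM1 had 1 read, and 40.9% of the FITM1 exon bases are shared with another gene on the same strand. The droplet coat genes PLIN3 and PLIN2 had 27.7, 30.6 and 38.2 and 24.2, 20.3 and 17.2 CPM, with PLIN2 over PLIN3 at 0.483, 0.367 and 0.2496 per kilobase, and PLIN1 and PLIN5 were not detected. The lipases PNPLA2 and MGLL were at 126 and 156 CPM on average. CPT1B and CIDEB had no read, with 66.4% of the CPT1B exon bases shared on the same strand and 100.0% of those of CIDEB opposite another gene.

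Of the detoxification and drug export genes 33 of 43 were detected (76.7%), with a median of 6.42 CPM per kilobase. ALDH1A1, which oxidises retinal and other aldehydes, was at 1758, 1767 and 1639 CPM, or 604 ± 25.1 CPM per kilobase. GPX2, the glutathione peroxidase of gut epithelium, was at 643, 643 and 687 CPM, the quinone reductase NQO1 at 775, 823 and 821, the glutathione transferase GSTP1 at 504, 534 and 589.6 and the thioredoxin reductase TXNRD1 at 625, 655 and 650.2. These levels differed little between libraries. Among drug-metabolising and export genes CYP3A5 had 195, 204 and 158 CPM and CYP3A4 0.219 on average, and ABCC3 and ABCG2 had 367 and 133 CPM while ABCB1 was not detected at 0.872. GSTM1, GSTA1 and UGT2B17 had no read, and 68.8%, 49.04% and 39.96% of their 31-base words occur in other genes. The UGT1A genes share exons, and the split of 147 CPM for UGT1A10 and 23.2 for UGT1A1 is uncertain.

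Of 25 amino acid, vitamin and iron transporters 19 were detected (76%, beside 55.8% of all protein-coding genes), led per kilobase by the glutamine carrier SLC1A5 at 869, 880.0 and 936 CPM, with the cationic amino acid carrier SLC7A1 at 656, 675 and 668. The leucine exchanger SLC7A5 and its partner SLC3A2 had 311 and 239 CPM on average, the cystine carrier SLC7A11 159.7 and the transferrin receptor TFRC 582. The brush border carriers SLC7A9 and SLC3A1 were not detected, and SLC6A19 had no read. SLC3A1 shares 26.9% of its exon bases with another gene on the same strand and has 29.4% opposite PREPL. Of its 31-base words, 58.5% occur in other genes. Of 30 ion and water transporters 20 were detected (66.7%). The chloride-loading cotransporter SLC12A2 was at 860.1, 915 and 829 CPM and the chloride channels ANO1 and CFTR at 200.2 and 72.8 on average. SCNN1A, the alpha subunit of the epithelial sodium channel, was at 195, 175 and 235 CPM, while the beta and gamma subunits SCNN1B and SCNN1G had no read in any library.

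**Figure D3:**
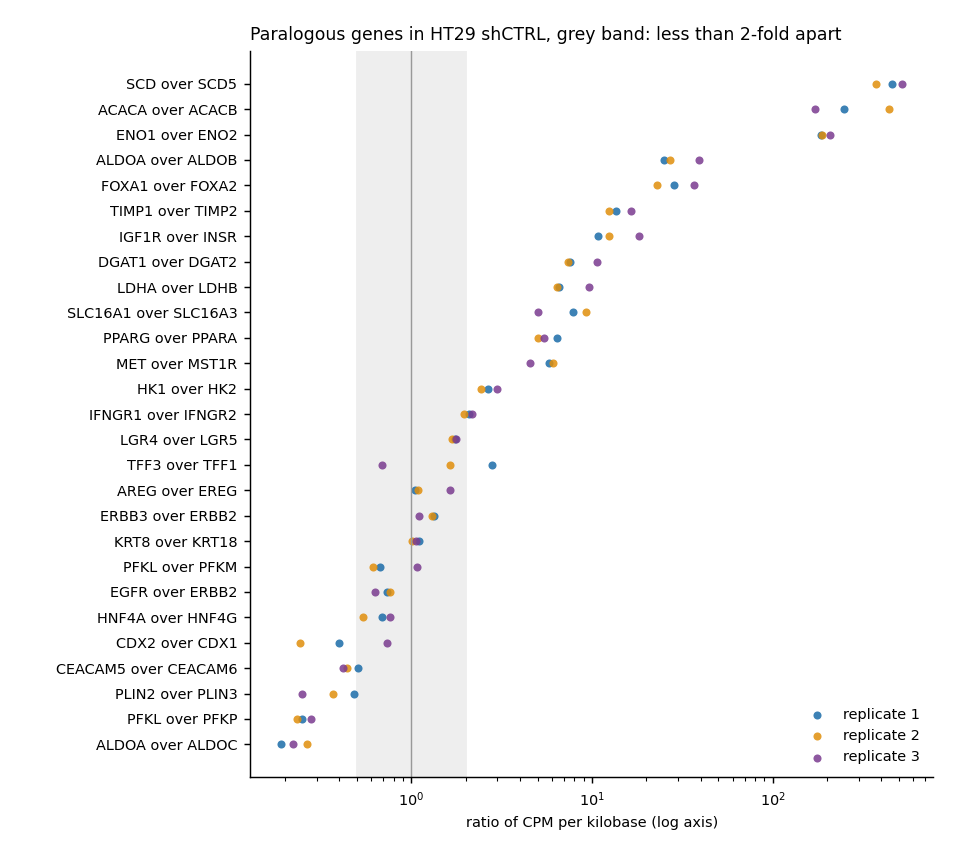
Ratio of CPM per kilobase of the first over the second gene of 27 paralogue pairs (log axis), with 1 point per shCTRL library. Points inside the grey band are less than 2-fold apart: 16 pairs lie outside it in all 3 libraries, and KRT8 over KRT18 lies at 1.10, 1.01 and 1.06.

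In all, 16 of the 27 pairs in which both genes had reads in every library were at least 2-fold apart in the same direction in all 3. Several receptor pairs were not: ERBB3 over ERBB2 was 1.33, 1.31 and 1.10, EGFR over ERBB2 0.736, 0.765 and 0.630 and LGR4 over LGR5 1.74, 1.67 and 1.76. Each of these 3 kept its order in every library while staying under 2-fold, but ERBB3 over ERBB2 averaged 0.910 with the length of 1 GENCODE transcript per gene.

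Of the receptor tyrosine kinases 27 of 58 were detected (46.6%, beside 55.8% of all protein-coding genes), with a median of 0.0406 CPM per kilobase. MET, the receptor for hepatocyte growth factor at chr7:116672390-116798386, was at 628, 679 and 555 CPM, or 88.2 ± 8.91 CPM per kilobase. The ephrin receptors EPHA2 and EPHB4 followed per kilobase, at 165, 176 and 209.8 and at 222, 215 and 303 CPM. Of the ERBB family of EGF receptor and its relatives, EGFR was at 157, 159 and 148 CPM, ERBB2 at 176, 172 and 194 and ERBB3 at 205, 197 and 187, while ERBB4 had no read. MET exceeded its relative MST1R by 5.78, 6.11 and 4.52 times and IGF1R exceeded INSR by 10.8, 12.4 and 18.2 times per kilobase. PDGFRA, PDGFRB, KIT, KDR and RET, known from stroma, blood, vessel and nerve, had no read. FGFR4 was the highest fibroblast growth factor receptor per kilobase, at 61.4, 61.4 and 81.3 CPM, and FGFR1 was not detected.

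**Figure D4:**
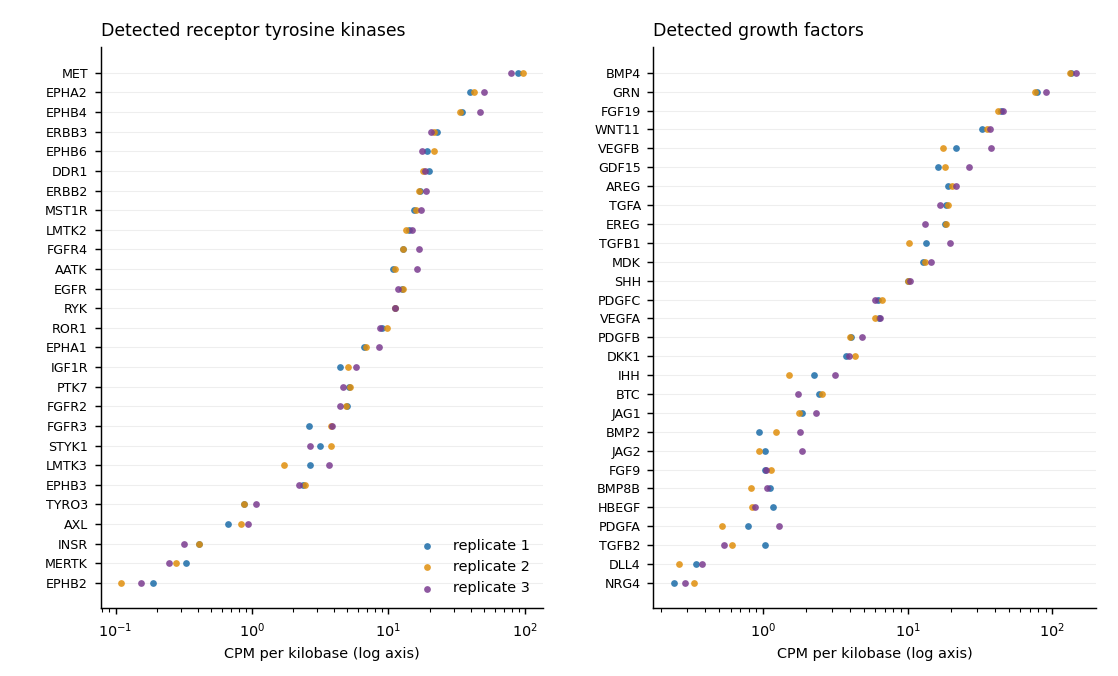
CPM per kilobase (log axis) of the 27 detected receptor tyrosine kinases and the 28 detected growth factors, with 1 point per shCTRL library. MET and BMP4 have the highest means of their lists, at 88.2 and 137 CPM per kilobase.

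Among G-protein-coupled and guanylate cyclase receptors 24 of 53 were detected (45.3%). The orphan receptor GPRC5A was at 584, 590.2 and 552 CPM, the lactate receptor HCAR1 at 153, 156 and 145 and the neurotensin receptor NTSR1 at 101, 85.3 and 144. These were the highest of the list per kilobase. The protease-activated receptors F2RL1 and F2R had 55.8 and 51.5 CPM on average, the fatty acid receptor FFAR4 54.5 and the vasoactive intestinal peptide receptor VIPR1 56.2. GUCY2C, the guanylin receptor of intestinal epithelium, had 1, 0 and 1 reads, the prostaglandin E2 receptor PTGER2 had none and PTGER4 had 0.115 CPM.

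Of 44 cytokine receptors 21 were detected (47.7%, beside 55.8% of all protein-coding genes), 0 of them at 100 CPM in every library, which 10.1% of all protein-coding genes reached. The interferon-gamma receptor chains IFNGR1 and IFNGR2 were at 76.00, 74.96 and 65.8 and at 32.9, 34.7 and 27.4 CPM, a ratio per kilobase of 2.08, 1.95 and 2.17. IL6ST, the shared gp130 chain, had 102, 104 and 84.9 CPM, and the interleukin-22 receptor IL22RA1 32.8, 27.2 and 40.5. The alpha chain IL6R was not detected at 0.347 CPM on average, although its partner IL6ST was. IFNAR2 and IL10RB were at 0.344 and 0.349 CPM, with 44.2% and 38.1% of their exon bases shared with a neighbouring gene on the same strand. Of 36 TNF receptor family members and Toll-like receptors 15 were detected (41.7%), led per kilobase by the death receptor TNFRSF21 at 355, 352 and 385 CPM. TNFRSF1A had 82.7 CPM, the TRAIL receptor TNFRSF10B 64.4 and FAS 8.75. TLR4, the endotoxin receptor, was at 34.5, 38.6 and 25.8 CPM, and TLR2 and CD40 had no read. 

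Nuclear receptors were detected in 30 of 48 cases (62.5%), with a median of 1.11 CPM per kilobase. NR2F6 led per kilobase at 136, 133 and 219 CPM, with replicate 3 the highest. PPARG, a fatty-acid-sensing receptor, was at 170.1, 149.5 and 143 CPM and exceeded PPARA by 6.42, 5.03 and 5.40 times per kilobase. The retinoid receptors RXRA and RARG had 171 and 122 CPM on average, the sterol sensor NR1H3 76.04 and the vitamin D receptor VDR 22.1. Of the steroid receptors ESR1 and PGR had no read, the glucocorticoid receptor NR3C1 had 1 read in all, and the mineralocorticoid receptor NR3C2 was at 2.65, 1.58 and 1.40 CPM.

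Developmental pathway receptors were detected in 21 of 31 cases (67.7%). The Wnt co-receptors LRP5 and LRP6 had 358, 336 and 504 and 87.1, 95.2 and 85.3 CPM, and the Wnt receptors FZD6, FZD5 and FZD7 80.3, 50.1 and 37.3 on average. The receptors for TGF-beta, TGFBR2 and TGFBR1, were at 147, 155 and 127 and at 23.1, 29.6 and 23.5 CPM, and NOTCH1 and NOTCH2 at 89.7 and 94.7 on average. PTCH1, the Hedgehog receptor, had 22.7, 22.1 and 20.8 CPM, while SMO, the transducer of the same pathway, had no read in any library. Of 31 surface antigens of epithelial tumours 25 were detected (80.7%), among them TM4SF1 at 581, 614 and 439 CPM, NECTIN2 at 311, 285 and 409.9 and the complement regulators CD46, CD59 and CD55 at 459, 162 and 103 on average. CEACAM5 (carcinoembryonic antigen) was at 16.8, 14.5 and 13.6 CPM and CEACAM6 at 30.1, 29.9 and 29.5.

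Growth factor genes were detected in 28 of 58 cases (48.3%). BMP4, at chr14:53949736-53958761, led per kilobase at 413, 410.1 and 445 CPM (137 ± 6.25 CPM per kilobase), followed by progranulin (GRN) at 289, 280.4 and 335, the endocrine factor FGF19 at 109, 103 and 111 and WNT11 at 78.4, 85.3 and 89.5. The EGF receptor ligands TGFA, EREG and AREG were at 92.01, 93.8 and 83.4, at 103, 106 and 75.5 and at 31.2, 33.3 and 35.6 CPM, so that transcripts for these ligands and for EGFR were measured in the same libraries. SHH, a Hedgehog ligand, was at 51.1, 50.8 and 52.2 CPM and VEGFA, a growth factor of vessels, at 92.1, 85.8 and 92.7. HGF, the ligand of MET, had no read, and neither did NRG1, a ligand of ERBB3, WNT5A or IGF1, of which 82.4% of the exon bases lie opposite another gene.

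RNA of most chemokine and cytokine genes was low, and secreted protein was not measured. Of 45 chemokines and cytokines 12 were detected (26.7%), 3 of them at 10 CPM or more in every library, and the summed level of the list was 125, 124 and 120.2 CPM. LIF, a cytokine of the interleukin-6 family, led per kilobase at 31.8, 29.4 and 33.5 CPM, followed by the interleukin-1 antagonist IL1RN at 12.99, 15.3 and 13.5 and by CXCL16 at 10.02, 8.94 and 11.6. CXCL8, the neutrophil attractant, had 7.37, 9.65 and 7.05 CPM. IL6, CCL2 and IFNG had no read, and TNF had 1; 20.7% of the IL6 exon bases lie opposite another gene. MIF was not detected at 0.796, 0.872 and 0.990 CPM, and 32.2% of its exon bases are shared on the same strand and 61.95% on the opposite strand with other genes.

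Of 42 proteases and inhibitors 30 were detected (71.4%). The kallikrein protease KLK6 led per kilobase at 668, 667 and 703 CPM (344 ± 10.3 CPM per kilobase), with KLK10 at 284, 288 and 343 and KLK11 at 71.3, 70.9 and 75.9. The metalloprotease inhibitor TIMP1 exceeded TIMP2 by 13.6, 12.5 and 16.4 times per kilobase. The matrix proteases MMP1 and MMP2 were not detected and MMP3 and MMP9 had no read, while the membrane protease MMP15 had 99.8 CPM on average. In the list of other secreted and defence genes 27 of 41 were detected (65.9%). The galectin-binding LGALS3BP was at 584, 599 and 722 CPM and the basement membrane proteoglycan AGRN at 1163, 1095 and 1604, the highest per kilobase. The laminins LAMA5 and LAMB3 had 368 and 191 CPM on average, and B2M, the light chain of class I antigen presentation, 476, 458 and 480.4. PIGR, the epithelial antibody carrier, was not detected at 0.129 CPM.

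The spread between the libraries was small for most genes but not evenly shared. Over 7314 genes with a mean of 20 CPM or more, the median coefficient of variation was 8.48%, and 323 genes exceeded 25%. The chi-square of the counts per gene was 5.60 for replicates 1 and 2, 20.2 for 1 and 3 and 28.5 for 2 and 3, so no pair agreed within sampling noise and the libraries were kept as 3 samples. Replicate 3 stood apart: in 186 genes it was over 1.5 times both others, beside 2 such genes for replicate 1 and 0 for replicate 2. In the other direction, both others were over 1.5 times replicate 3 in 17 genes, replicate 1 in 0 and replicate 2 in 5. Replicate 3 was not higher in general, being the lowest library in 3703 genes and the highest in 2651. The 5 genes with the largest coefficient of variation, TMEM238, SCAND1, SERF2, CYBA and PHLDA2, were all highest in replicate 3, for example TMEM238 at 15.7, 8.07 and 55.4 CPM and CYBA, a subunit of NADPH oxidases, at 66.2, 51.6 and 176 CPM. SERF2 shares 33.9% of its exon bases with HYPK on the same strand.

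The deviation moved with base composition. With the genes ordered by GC content and divided into 5 equal bins, the bin of highest GC had a median log2 deviation from the mean of the libraries of -0.08, -0.13 and 0.22 for replicates 1, 2 and 3, and the bin of lowest GC had 0.02, 0.12 and -0.14. With the GC trend of each library removed, the median coefficient of variation was 5.86%, and 38 genes were over 1.5 times both others in replicate 3. Both others were then over 1.5 times replicate 3 in 24 genes. Without replicate 3 the median coefficient of variation was 4.22%. As it is taken over the remaining libraries only, it cannot be set directly against the values over all 3. The higher values of replicate 3 given above for FTH1, TMSB10, ASCL2, AGRN, LRP5 and NR2F6 stand beside this trend, and its part in each was not tested. The GC content of FTH1, 50.1%, lies in the third bin and that of TMSB10, 53.8%, in the fourth, where the median deviations of replicate 3 were -0.04 and 0.05. ASCL2, AGRN, LRP5 and NR2F6 have 69.2%, 67.5%, 62.8% and 71.1%, within the range of the highest bin.

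**Figure D5:**
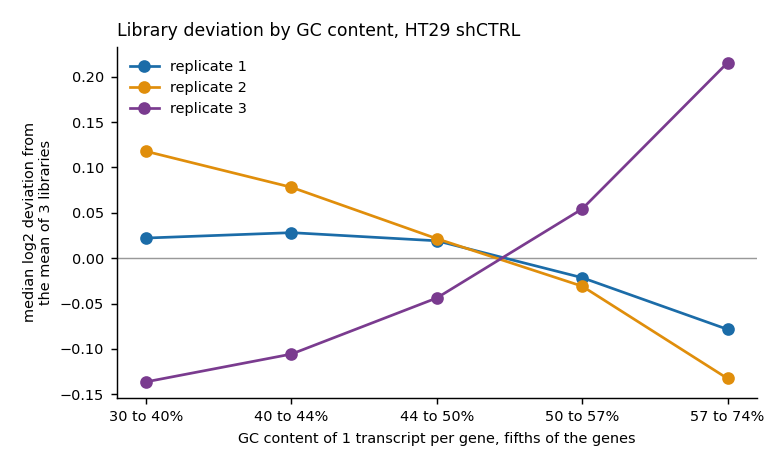
Median log2 deviation of each shCTRL library from the mean of the 3, for 5 equal bins of 7314 genes ordered by the GC content of 1 transcript per gene. Replicate 3 goes from -0.14 in the lowest bin to 0.22 in the highest, and replicate 2 from 0.12 to -0.13.

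Low values also went with annotation overlap on the same strand. Among genes with 90% or more of their exon bases shared with another gene on the same strand, 0 of 475 were detected, beside 58.4% of 18473 genes with under 20% shared. Within these 18473 genes, overlap on the opposite strand showed no steady order. Detected were 58.1% of 17474 genes with under 20% opposite another gene and 68.6% of 844 with 20 to under 50%. At 50 to under 90% the share was 43.85% of 130 genes, and at 90% or more 0 of 25. For CDX2, CDX1, GUCY2C, NR3C1, SI, OLFM4, GATA4, SMO and HGF, none of which was detected, no overlap of 20% or more was found.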

How the data were processed

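Strand-preserving RNA-seq of the 3 shCTRL libraries was analysed; the 3 count columns of the other group were not used. The deposited gene table holds whole-number read counts per gene, with gene length and biotype, per the file headers. Per the submitters' processing notes, featureCounts 1.5.0-p3 and the aligner HISAT2 2.0.5 were among the tools, and the build was hg19, but the gene positions are those of GRCh38: 58735 of 58735 Ensembl identifiers have their GENCODE 29 position and length, and 243 loci have no such identifier. The sources used here state neither the strand setting nor the handling of multiply mapped reads.

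Counts were divided by the library total over all genes to give CPM, and by the deposited gene length (another unit, in bases) for CPM per kilobase, in Python 3.11.15 with pandas 2.3.3. TMM factors and dispersions came from edgeR 4.0.16 and size factors from DESeq2 1.42.0, in R 4.3.3. The calculations were tested on simulated data. Of 1040 listed genes 1037 matched a symbol, and GSTT1, CCN1 and CCN2 did not. Shared exon bases and shared 31-base words were computed from GENCODE 29, and upstream sequences came from RefSeq. Named genes were the 15 most abundant nuclear genes per kilobase, up to 6 leading and the first 3 members of each list, both members of each of 35 pairs, the 5 genes of largest coefficient of variation, and others where a role needed them; some genes and pairs of these rules are not reported here. The members and lists were chosen with earlier results of these data known.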

Additional observations from a re-analysis of the deposited data

How the results depend on the processing

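No paired analysis was possible because the libraries form 1 group and no result comes from a test. The count of detected genes, 11141, was 11156 with TMM library sizes, 11141 with DESeq2 size factors, 11240 over nuclear protein-coding totals and 11219 to 11248 without 1 replicate; it was 11648 at 0.5 CPM, 9637 at 5 CPM, 9745 at 1 CPM per kilobase and 13211 with any read in every library. Pairs at least 2-fold apart numbered 16 of 27, and 17 without length scaling or without any 1 replicate. The mean ratio of 0 of these 16 pairs crossed 1 under the alternatives run, but it did in 4 of the 11 others: without length scaling AREG over EREG went from 1.26 to 0.363 (0.303 to 0.472 over the libraries, at least 2-fold the other way in each), CDX2 over CDX1 from 0.459 to 1.08 and HNF4A over HNF4G from 0.662 to 1.01, and with the length of 1 GENCODE transcript per gene ERBB3 over ERBB2 went from 1.25 to 0.910. Without length scaling 22 of 27 ratios moved by more than the spread between libraries. The median coefficient of variation, 8.48%, ranged from 4.22% to 10.1% when 1 replicate was left out, lowest without replicate 3, and the cause was not tested. The values with 1 replicate left out are over fewer libraries and are not directly comparable with 8.48%. Totals over nuclear protein-coding genes moved 30 of 42 named levels by more than 1 SD. Added after seeing the data, the length of 1 GENCODE transcript per gene gave 16 pairs and moved 13 ratios, and genes with under 20% of exon bases in another gene gave 10149 detected of 17474.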

Other observations

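Genes that are not protein-coding took 2.60%, 2.59% and 2.53% of the counts. Pseudogenes took 0.781%, 0.783% and 0.798%, and the lincRNA and antisense classes together 0.682%, 0.691% and 0.654%. The 86 ribosomal protein genes took 5.48%, 5.47% and 5.71%. The 3 libraries were within a narrow band for each of these classes.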
